A study of Mus musculus with 27 samples.

Results

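The Cyp3a family was examined in liver RNA of 27 pups at 2 weeks of age, while they were still suckling. Of 6 listed genes (Cyp3a11, Cyp3a13, Cyp3a16, Cyp3a25, Cyp3a41a and Cyp3a44), 5 had a probe set annotated to that gene alone and were measured, among 18820 genes in all; Cyp3a41a had none and was left out. A gene's probe set was to be chosen by the highest mean signal over all 27 arrays, and since each of the 5 genes had exactly 1 single-gene probe set, no choice arose. The opposite diet responses of Cyp3a44 in sons and daughters were known when the family was picked, so the tests on it are no independent evidence. The offspring were C57Bl/6J mice whose dams were fed a low fat control diet (LFD, 10% of energy as fat, 18.0 mg cholesterol per kg) or a Western-style diet (WSD, 45% and 196.5 mg per kg) for 6 weeks before mating, in gestation and in lactation, with sires on control diet and trimmed litters in both arms. This gave 6 males of LFD dams (m-LF), 6 males of WSD dams (m-WS), 9 females of LFD dams (f-LF) and 6 females of WSD dams (f-WS), with 1 array per pup. The comparison asks whether the mother's diet altered these enzymes in sons and in daughters.

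Cyp3a enzymes are haem-containing monooxygenases of the endoplasmic reticulum that hydroxylate steroids, bile acids and many drugs, taking their electrons from P450 reductase. In liver their genes are controlled by the nuclear receptors PXR and CAR, by liver-enriched transcription factors and, in adult rodents, by the sex-specific rhythm of growth hormone. Cyp3a11 is the chief form of the adult mouse liver, Cyp3a16 a form of the foetal and young liver, Cyp3a41a and Cyp3a44 are higher in adult females, Cyp3a25 is made in liver and small intestine, and Cyp3a13 is also made in the intestine.

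By the RefSeq annotation of mouse assembly GRCm38.p6, Cyp3a13 lies apart on chromosome 5, and the other 8 protein-coding Cyp3a genes form 1 cluster there with 3 pseudogenes, in the order Cyp3a57, Cyp3a16, Cyp3a41b, Cyp3a41a, Cyp3a44, Cyp3a11, Cyp3a25 and Cyp3a59. For each measured member, 250 bases before a start given in RefSeq (GRCm38.p6, 5′ to 3′) are shown because they sort the members into alike and unlike genes; capitals mark the motif TATAAA, the motif AGTTCA or the motif AGGTCA, on either strand.
Cyp3a16, chr5:145469724-145469973, minus strand: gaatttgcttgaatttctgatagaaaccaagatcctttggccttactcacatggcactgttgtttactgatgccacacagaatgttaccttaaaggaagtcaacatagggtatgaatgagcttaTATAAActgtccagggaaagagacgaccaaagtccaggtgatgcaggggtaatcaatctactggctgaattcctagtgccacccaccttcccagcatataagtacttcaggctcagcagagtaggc
Cyp3a44, chr5:145805875-145806124, minus strand: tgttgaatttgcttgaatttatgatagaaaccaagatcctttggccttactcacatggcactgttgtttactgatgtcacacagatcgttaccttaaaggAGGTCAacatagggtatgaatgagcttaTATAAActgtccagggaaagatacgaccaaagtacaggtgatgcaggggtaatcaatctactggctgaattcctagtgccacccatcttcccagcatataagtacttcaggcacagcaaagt
Cyp3a11, chr5:145879855-145880104, minus strand: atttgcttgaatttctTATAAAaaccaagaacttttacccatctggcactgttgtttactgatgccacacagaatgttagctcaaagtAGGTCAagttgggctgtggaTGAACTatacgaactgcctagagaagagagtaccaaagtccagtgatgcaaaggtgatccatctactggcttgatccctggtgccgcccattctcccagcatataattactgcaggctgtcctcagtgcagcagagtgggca
Cyp3a25, chr5:146009619-146009868, minus strand: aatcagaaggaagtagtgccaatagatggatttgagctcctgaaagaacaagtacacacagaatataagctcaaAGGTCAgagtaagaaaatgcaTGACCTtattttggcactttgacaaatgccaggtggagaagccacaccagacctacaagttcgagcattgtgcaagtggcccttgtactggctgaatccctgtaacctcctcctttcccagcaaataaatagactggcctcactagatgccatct
Cyp3a13, chr5:137921620-137921869, minus strand: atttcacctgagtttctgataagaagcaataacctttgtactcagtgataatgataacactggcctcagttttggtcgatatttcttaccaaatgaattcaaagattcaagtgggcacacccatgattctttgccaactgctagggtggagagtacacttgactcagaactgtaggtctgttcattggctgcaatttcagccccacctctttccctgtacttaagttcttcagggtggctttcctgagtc

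A gene's RefSeq start need not be its outermost annotated end. The window of Cyp3a13 lay wholly inside the gene as annotated, which spans chr5:137892933-137925610, those of Cyp3a16 and Cyp3a44 reached 17 bases into the annotated gene and that of Cyp3a25 26 bases. The windows of Cyp3a16 and Cyp3a44 had 236 identical bases in 254 aligned columns (92.9%). Cyp3a44 was 94.4% identical to the unmeasured Cyp3a41a, and Cyp3a41a to Cyp3a41b 99.6%. Against Cyp3a11 the identity was 76.2% for Cyp3a16 and 71.7% for Cyp3a44, and against Cyp3a25 it was 52.0% and 51.6%. Cyp3a13 stood at 47.5% to 56.2% to every other family member with a window. Searched on both strands, AGGTCA, a half-site read by nuclear receptors, was found in the windows of Cyp3a44, Cyp3a11 and Cyp3a25 and in 14.0% of all 32851 mouse windows of this length; AGTTCA was found in that of Cyp3a11 and in 11.8% of all; TATAAA was found in those of Cyp3a16, Cyp3a44 and Cyp3a11 and in 12.4%. GTTAAT, part of sites read by HNF1 factors, was in none of the 5 windows and in 6.4% of all; the same held for TTCNNNGAA, read by STAT5, at 7.0% of all. A match is a string of letters and not a shown binding site.

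The signal of a probe set is a log2 intensity from RMA, a method by which the authors corrected background, equalised the arrays and summarised probes. WSD was set against LFD within each sex by limma in 1 model over all arrays, on the 10810 genes whose intensity reached 20 in 4 or more pups and whose interquartile range was 0.1 or more. All 5 members passed the intensity filter and 4 both filters; Cyp3a11, with an interquartile range of 0.094, did not vary enough and is given from the fit of the 13279 genes past the intensity filter. The words rose, fell and changed stand for a limma p of at most 0.01, the threshold of the study's methods; the p printed is the one adjusted over all genes by Benjamini-Hochberg. Array medians lay between 5.34 and 5.43, and correlations between arrays between 0.9812 and 0.9956. Of 8 hepatocyte markers with a probe set, such as Alb, Ttr and Cps1, each had a mean at or above the 98.8th percentile of all genes. Xist, the RNA that coats the inactive X chromosome of females, was 9.30 in m-LF6 and 7.92 in m-WS1, against 3.25 to 4.50 in the other 10 males and 11.67 to 11.88 in the females, while the Y-linked Uty was 7.69 to 8.10 in all males; values without these 2 pups, a fit added for the lists and shared probe sets after the data were seen, are given with the diet results and those between the sexes on WSD. Where fewer cells of a type and less RNA per cell would lower a signal, the arrays of whole liver cannot tell them apart.

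In sons of WSD dams, Cyp3a16 and Cyp3a44 were lower and Cyp3a13 was higher than in sons of LFD dams, while Cyp3a44 was higher in daughters of WSD dams. Among the 4 members tested, 1 rose and 2 fell in males, where 3.02% of all genes rose and 2.6% fell. In females 1 rose and 0 fell, where 3.6% of genes rose and 1.59% fell. Both counts include Cyp3a44, whose responses were known when the family was picked, so they are no independent evidence. The changes were small, between 1.18-fold and 1.32-fold, and no member had an adjusted p under 0.05 for the diet in either sex. Their median log2 difference was not read further, since the 4 went in different directions.

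**Figure D1:**
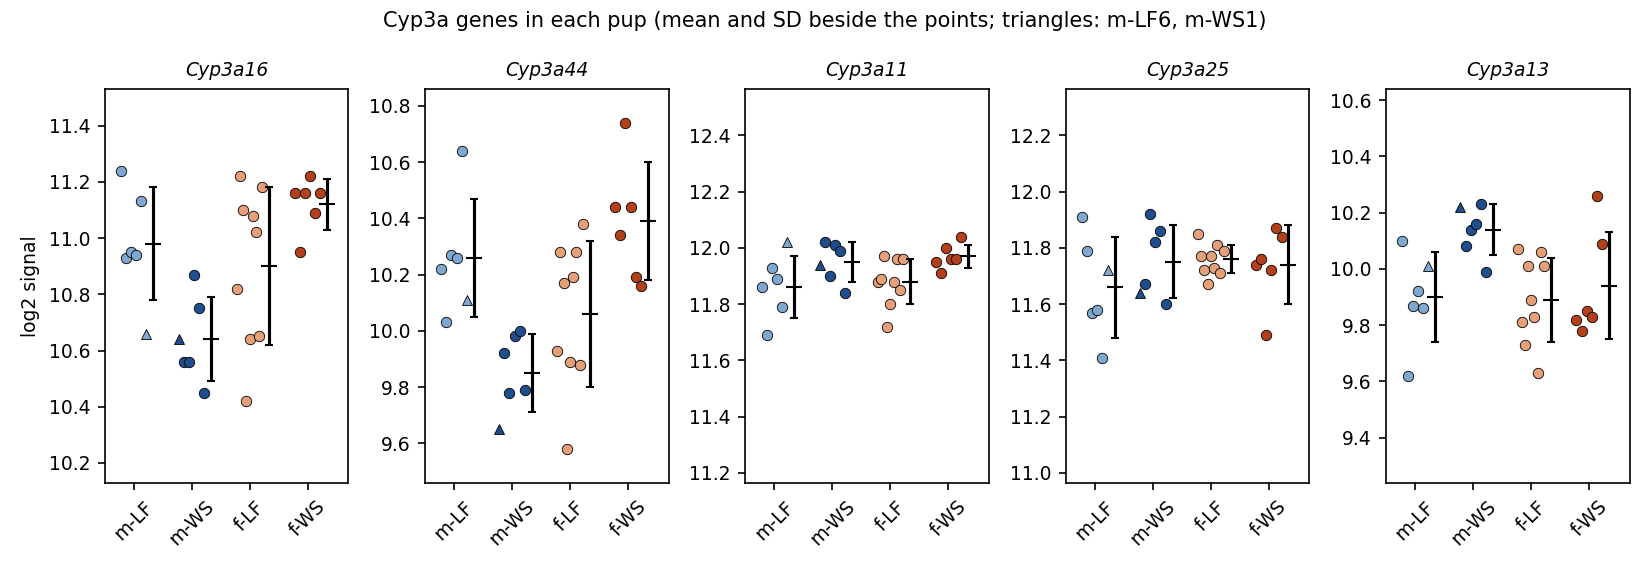
Log2 signal of the 5 measured Cyp3a genes in each of 27 pups, by group (x axis), each panel spanning the same log2 range; the black dash and bar give mean and SD, and triangles mark m-LF6 and m-WS1. The 6 m-WS pups lie at or below 10.00 for Cyp3a44 and all 6 m-LF pups at or above 10.03, whereas Cyp3a11 spans 0.35 over all pups.

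Cyp3a44, an enzyme that is higher in adult female liver, had in m-LF a lowest value of 10.03, a median of 10.24 and a highest of 10.64, and in m-WS 9.65, 9.86 and 10.00. The groups of males did not overlap, as for 1.39% of all genes tested. The means were 10.26 ± 0.21 and 9.85 ± 0.14 (SD, n = 6 each), so that Cyp3a44 fell by 0.40 ± 0.11 (SE) on the log2 scale in limma (adjusted p = 0.0812). In daughters the lowest, median and highest values were 9.58, 10.17 and 10.38 in f-LF and 10.16, 10.39 and 10.74 in f-WS. These groups overlapped: f-WS lay in the upper part of the f-LF range and beyond it. Cyp3a44 rose in females by 0.32 ± 0.10 (SE), 1.25-fold (limma, adjusted p = 0.161).

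Exact 2-sided permutation tests over the pups of 1 sex or of 1 maternal diet were run for the 5 members, 20 tests in all, without adjustment. For Cyp3a44 the exact test gave p = 0.00216 in males, the smallest that 6 against 6 pups can give, and p = 0.0232 in females, which misses 0.01. Without m-LF6 and m-WS1, Cyp3a44 still fell in males, by 0.39 (adjusted p = 0.105).

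Cyp3a16, the form of young liver, had a lowest value of 10.66, a median of 10.95 and a highest of 11.24 in m-LF, against 10.45, 10.60 and 10.87 in m-WS. The 2 groups overlapped, with 1 of the m-LF pups, m-LF6, among the values of m-WS. Cyp3a16 fell in males by 0.34 ± 0.11 (SE), 1.26-fold (limma, adjusted p = 0.131), although the exact permutation test gave p = 0.013. Without m-LF6 and m-WS1 the difference was -0.40 (adjusted p = 0.0751). In females Cyp3a16 ran from 10.42 over a median of 11.02 to 11.22 in f-LF and from 10.95 over 11.16 to 11.22 in f-WS. Both groups reached the same highest value, and the low values were those of f-LF pups. The female difference was 0.22 ± 0.10 (SE, 95% interval 0.01 to 0.43, adjusted p = 0.307), which misses the threshold.

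Cyp3a13, which lies outside the cluster, rose in sons. It ran from 9.62 over a median of 9.90 to 10.10 in m-LF and from 9.99 over 10.15 to 10.23 in m-WS. The groups overlapped at m-LF1 and m-LF6. The rise was 0.24 ± 0.08 (SE), 1.18-fold (limma, adjusted p = 0.168). It missed the threshold in the exact permutation test (p = 0.0108), without m-LF6 and m-WS1 (0.24, adjusted p = 0.179) and without any 1 of 8 single pups. In females the group means were 9.89 ± 0.15 (SD, n = 9) and 9.94 ± 0.19 (n = 6). That is a difference of 0.05 with a 95% interval of -0.11 to 0.20.

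For Cyp3a11, the chief adult form, and Cyp3a25, no change passed the threshold in either sex. Cyp3a11 was 11.86 ± 0.11 in m-LF, 11.95 ± 0.07 in m-WS, 11.88 ± 0.08 in f-LF and 11.97 ± 0.04 in f-WS (SD, n = 6, 6, 9 and 6). Its range over all pups, 0.35, was the narrowest among the members. Its diet differences were 0.09 in males (95% interval -0.01 to 0.18, adjusted p = 0.431) and 0.09 in females (0.004 to 0.18, adjusted p = 0.323). Cyp3a25 was 11.66 ± 0.18 in m-LF, 11.75 ± 0.13 in m-WS, 11.76 ± 0.05 in f-LF and 11.74 ± 0.14 in f-WS. The intervals of its diet differences, -0.05 to 0.24 in males and -0.15 to 0.11 in females, do not reach the size of 0.40 that Cyp3a44 had in males. Without m-LF6 and m-WS1 the male differences were 0.12 for Cyp3a11 (adjusted p = 0.22) and 0.12 for Cyp3a25 (adjusted p = 0.478), and neither passed the threshold.

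Cyp3a16 and Cyp3a44 responded differently in sons and daughters. The male minus the female diet difference, tested as an interaction in the same model, was -0.72 ± 0.16 (SE, 95% interval -1.04 to -0.41) for Cyp3a44 (adjusted p = 0.182). For Cyp3a16 it was -0.56 ± 0.15 (-0.86 to -0.25, adjusted p = 0.355). So 2 of 4 members changed by this test, against 2.5% of all genes, though neither passed an adjusted p of 0.05. This count is no independent evidence, since the opposite responses of Cyp3a44 were known when the family was picked. Cyp3a16 also varied with Cyp3a44 within groups (r = 0.73). The other members had -0.004 (Cyp3a11, -0.13 to 0.12), 0.11 (Cyp3a25, -0.08 to 0.31) and 0.19 (Cyp3a13, -0.04 to 0.42), each with an interval that includes 0. Without m-LF6 and m-WS1 the interaction was -0.71 for Cyp3a44 (adjusted p = 0.138) and -0.62 for Cyp3a16 (adjusted p = 0.194), both still past the threshold.

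On WSD the sons had less of both than the daughters. Cyp3a44 was lower in m-WS than in f-WS by 1.45-fold, a log2 difference of -0.53 ± 0.11 (SE, limma, adjusted p = 0.0436). This adjusted p became 0.109 without m-LF6 and m-WS1, 0.0574 and 0.279 with the number found in the array names as a random or a fixed block, and 0.0641 with the prefix of those names as a block. Cyp3a16 was lower by 1.40-fold, -0.49 ± 0.11 (SE, adjusted p = 0.0712); the difference was also -0.49 without m-LF6 and m-WS1 (adjusted p = 0.0744). Exact permutation tests gave p = 0.00216 for each. For both genes all 6 m-WS pups lay below all 6 f-WS pups, a separation seen in 0.962% of genes tested, and 2 of 4 members changed here against 3.35% of all genes. That count, too, is no independent evidence, because the family was picked with the responses of Cyp3a44 known. Cyp3a13 ran the other way on WSD, 0.20 higher in m-WS than in f-WS (95% interval 0.02 to 0.37, adjusted p = 0.385), which misses the threshold. Without m-LF6 and m-WS1 it was 0.18 higher (adjusted p = 0.488). On LFD no member changed between the sexes (1.37% of genes did). There Cyp3a44 was 0.19 higher in males (95% interval -0.02 to 0.41) and Cyp3a16 0.07 higher (-0.13 to 0.28). From high to low, the group means of Cyp3a44 ran f-WS 10.39, m-LF 10.26, f-LF 10.06 and m-WS 9.85. Those of Cyp3a16 ran 11.12, 10.98, 10.90 and 10.64 in the same order, and groups next to each other in it overlapped for both genes.

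**Figure D2:**
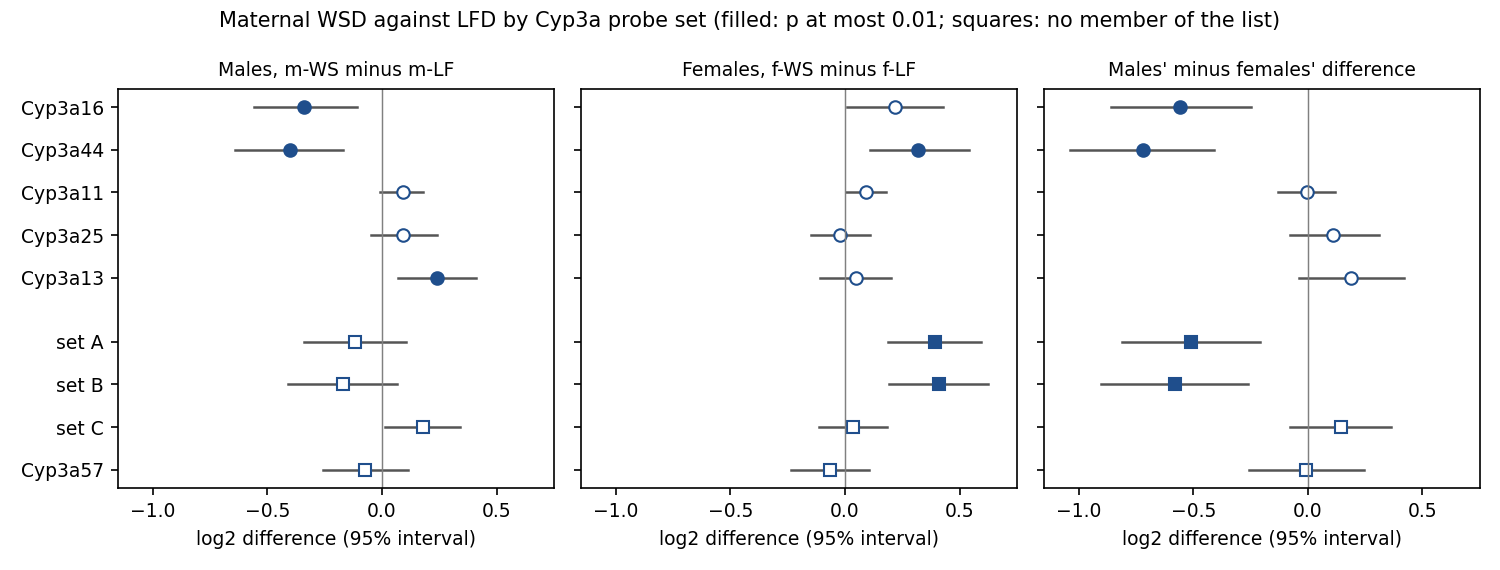
Log2 differences (x axis) with 95% intervals in males, in females and for males minus females, for the 5 members (circles) and for 4 further Cyp3a probe sets (squares: sets A and B shared by Cyp3a41b, Cyp3a44, Cyp3a41a and Cyp3a11, set C shared by Cyp3a59, Cyp3a57 and Cyp3a25, and Cyp3a57). Filled symbols have p of at most 0.01; Cyp3a16, Cyp3a44 and sets A and B lie left of 0 in the third panel, with values from -0.51 to -0.72.

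The family has 9 probe sets, of which 3 are annotated to several Cyp3a genes. A pair of these, called sets A and B here, is shared by Cyp3a41b, Cyp3a44, Cyp3a41a and Cyp3a11, so that the skipped Cyp3a41a enters the data only in this mixture. They were fitted with all annotated probe sets, a step added after the data were seen. In females set A ran from 10.71 over a median of 11.08 to 11.35 in f-LF and from 11.25 over 11.38 to 11.68 in f-WS. It rose in females by 0.39 (adjusted p = 0.0539) and set B by 0.41 (adjusted p = 0.0586). In males the differences of sets A and B were -0.12 and -0.17, neither past the threshold, and between the sexes the responses differed by -0.51 (adjusted p = 0.346) and -0.58 (adjusted p = 0.312), both past it. They still differed past it, by -0.48 and -0.56, without m-LF6 and m-WS1. Set C, shared by Cyp3a59, Cyp3a57 and Cyp3a25, was 0.18 higher in males (adjusted p = 0.311) and 0.04 in females, neither past it. Cyp3a57, the first gene of the cluster, had a mean of 4.28, close to the intensity minimum, and differed by -0.07 in each sex.

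Once each group's mean was subtracted, the members varied together in part, which is given as a description over 27 pups. Cyp3a44 followed sets A and B with r = 0.91 each, although their annotated genes overlap, and sets A and B followed each other with r = 0.98. Cyp3a16 and Cyp3a44, which share no annotated probe set, had r = 0.73 (rho = 0.68). Cyp3a25 followed set C with r = 0.79 and Cyp3a44 with r = -0.31. Cyp3a13 had r = -0.36 with Cyp3a44 and -0.14 with Cyp3a16. Whether the probes of 1 gene also read RNA of another was not tested, since no probe sequences were analysed here.

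**Figure D3:**
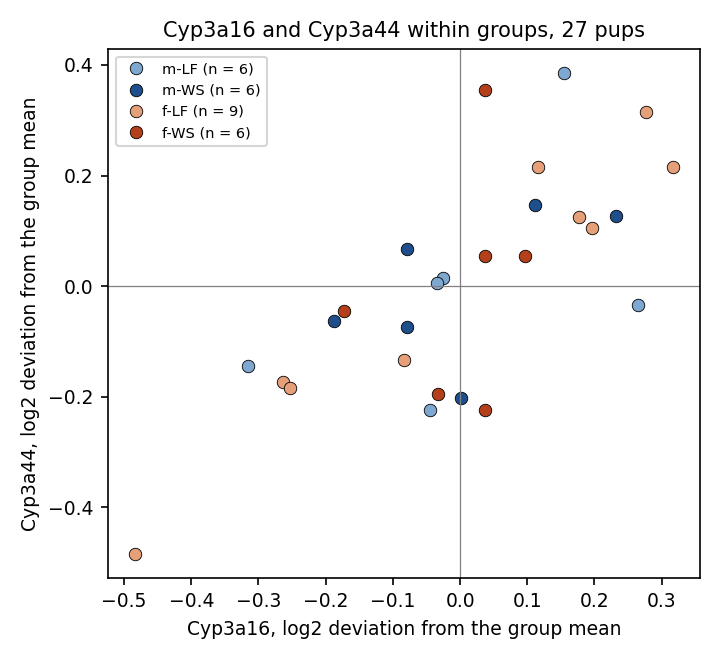
Deviation of each of 27 pups from its group mean, Cyp3a16 on the x axis and Cyp3a44 on the y axis, in log2 units and coloured by group. The points rise together (r = 0.73), and the pup lowest for both is an f-LF female.

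The 3 genes whose deviations were most like those of each member were searched among 13278 genes past the intensity filter. Those of Cyp3a44 were Nme1, a nucleoside diphosphate kinase (r = 0.80), Ces2e, a carboxylesterase (r = 0.80), and Atp2b2, a calcium pump of the plasma membrane (r = 0.78). Of these, Ces2e fell in males (-0.26) and had a diet difference of 0.02 in females. Atp2b2 had -0.13 in males and rose in females (0.59). Those of Cyp3a16 were Agmo, which cleaves ether lipids (r = 0.80), Rmdn2 (r = 0.79) and Gm10768 (r = 0.79). Cyp3a25 was most like Cyp2c29, another drug-metabolising P450 (r = 0.76), Akr1d1, the steroid 5-beta-reductase of bile acid synthesis (r = 0.74), and Acsf2 (r = 0.73). Cyp3a13 was most like Tnrc6b (r = 0.84), Bche (r = 0.82) and Tmem63b (r = 0.82), and Cyp3a11 like Zfp971 (r = 0.71), Cep57 (r = 0.68) and B130006D01Rik (r = 0.66).

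A number of unstated meaning stands in each array name, 37, 49 or 50 for pups of LFD dams and 39, 40 or 48 for pups of WSD dams, so number and maternal diet are nested. Nothing in the labels says whether pups of 1 number share a dam, and the p-values measure the spread between pups taken as independent. Each number but 39, which holds females only, contains both sexes. Within number 40 males were below females by 0.80 for Cyp3a44, their means being 9.79 and 10.59, and within number 48 by 0.29 (9.89 and 10.18). The 2 males of number 40 were m-WS1, with its Xist signal, at 9.65 and m-WS2 at 9.92. On LFD the male minus female differences of Cyp3a44 were 0.00 in number 37, 0.29 in 49 and 0.25 in 50. For Cyp3a16 they were -0.59 in 40 and -0.47 in 48, against 0.04, 0.16 and -0.02 on LFD. Sons thus lay below daughters in both WSD numbers for both genes, and the daughters of number 48 had a lower Cyp3a44 than those of 40 or 39 (10.39). With the number as a fixed block the difference between the responses was -0.69 for Cyp3a44 and -0.59 for Cyp3a16, both past the threshold (adjusted p = 0.344 each). This fit was not repeated without m-LF6 and m-WS1.

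**Figure D4:**
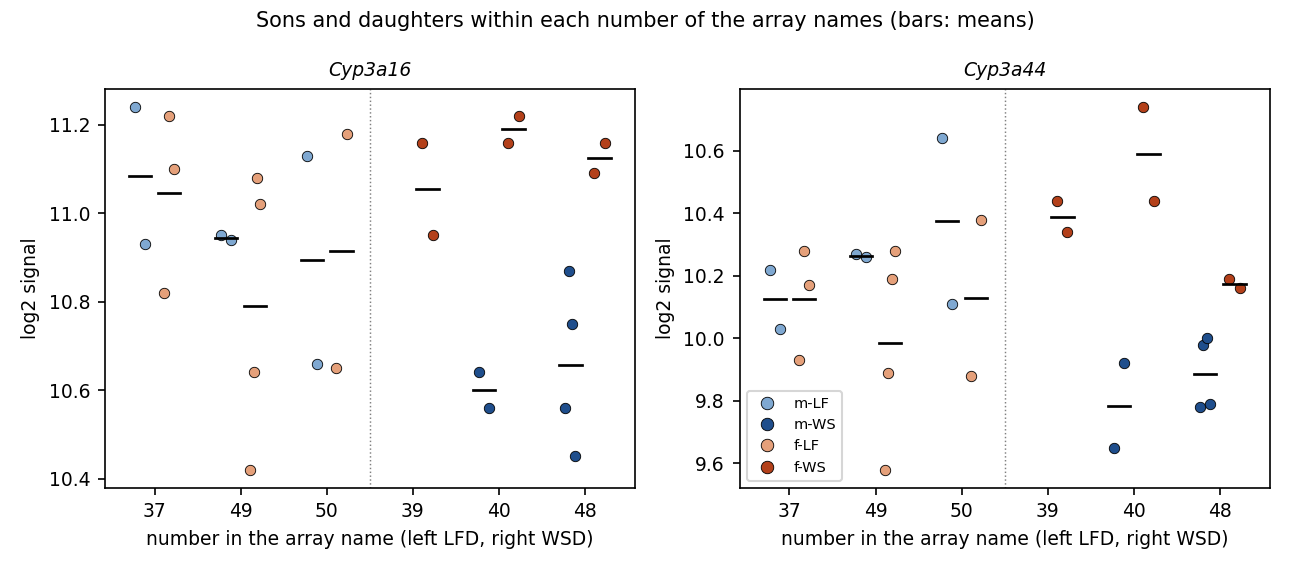
Log2 signal of Cyp3a16 and Cyp3a44 (y axis) in males (blue) and females (orange) within each number of the array names (x axis, LFD numbers left of the dotted line), with bars for means. In numbers 40 and 48 every male lies below every female for both genes, and in the LFD numbers the sexes overlap.

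The diet differences within a sex cannot be computed within a number, and several lost their call when a number entered the fit or was left out. The number was also fitted as a random block, with a correlation of 0.0887 that is a consensus over all genes tested. The correlation of the Cyp3a genes themselves was not estimated apart. With this block, the rises of Cyp3a13 in males (0.22, adjusted p = 0.337) and of Cyp3a44 in females (0.32, adjusted p = 0.28) missed the threshold. Cyp3a44 and Cyp3a16 still fell in males. Without number 40, Cyp3a44 in females was 0.22, not past the threshold, and without number 48, which left 2 m-WS pups, 0 members changed in males, where Cyp3a44 was -0.47 and Cyp3a16 -0.38. The names also carry a prefix, G073 or G074, found in every group. Cyp3a16 differed between them past the threshold, G074 minus G073 being -0.199, and with the prefix as a block its male difference was -0.30 (adjusted p = 0.128) and its interaction -0.50 (adjusted p = 0.384), both still past the threshold.

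Among regulators and partners of Cyp3a enzymes, the receptor PXR did not pass the threshold in either sex, and the genes that did rose. Of 19 tested genes in a list of 29, in males 2 rose and 0 fell, where 3.02% of all genes rose and 2.6% fell, with a median log2 difference of -0.04 against 0.007 over all genes. In females 1 rose and 0 fell, where 3.6% of all genes rose and 1.59% fell, with a median of 0.01 against 0.014. The count in males was 1 without m-LF6 and m-WS1, since Pgrmc2 missed the threshold (0.16, adjusted p = 0.155). Larger differences that did not pass were -0.37 in males for Ppargc1a, a coactivator of nuclear receptors, and 0.50 in females for Onecut1, a liver-enriched factor. Nr1i2, which encodes PXR, differed by -0.05 in males (adjusted p = 0.845) and by 0.01 in females (adjusted p = 0.962); Nr1i3, which encodes CAR, and Por, the P450 reductase, had no single-gene probe set. Hnf4a, a core hepatocyte factor, differed by -0.02 and 0.00. Pgrmc2, a haem-binding membrane protein, rose in both sexes, by 0.15 in males (adjusted p = 0.177) and by 0.25 in females (adjusted p = 0.0171). Nr5a2, a nuclear receptor of bile acid and steroid metabolism, rose in males by 0.21 (adjusted p = 0.057) and its response differed between the sexes by 0.21 (adjusted p = 0.386).

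Other targets of PXR and CAR were counted beside the members. Of 27 tested genes, 2 rose and 4 fell in males with a median of -0.01 (all genes 3.02% and 2.6%, median 0.007), and 1 rose and 1 fell in females with a median of -0.04 (all genes 3.6% and 1.59%, median 0.014). In males 4 rose and 4 fell without m-LF6 and m-WS1, and in females 2 rose and 1 fell. Cyp2b10, the classical CAR target, rose in males by 1.78 (adjusted p = 0.007), more than any Cyp3a member, and had 0.54 in females (adjusted p = 0.39). Cyp2c50 and Cyp2c54, P450s of the mature liver, changed in males by -1.52 and -1.54 (adjusted p = 0.00448 and 0.0466). Aldh1a1, a retinal dehydrogenase, rose in males by 0.87 (adjusted p = 0.0736), Aldh1a7 rose in females by 0.94 (adjusted p = 0.074) and Cyp2c29 fell in females by 0.28 (adjusted p = 0.168).

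Genes that differ between adult males and females were looked at because Cyp3a44 is one of their kind. Over all genes 3.02% rose and 2.6% fell in males, 3.6% rose and 1.59% fell in females and 3.35% changed in either direction between the sexes on WSD. Among 10 tested genes higher in adult females, 1 rose (Hamp2, 0.84) and 1 fell (Cyp2b13, -0.61) in males and 1 rose in females (Hao2, 0.20), and on WSD 1 was higher and 2 lower in males, the latter being Cux2 (-0.71) and Acot3 (-0.85). Among 10 genes higher in adult males, 1 fell in males (Cyp2d9, -0.48), 1 rose (Ugt2b38, 0.31) and 1 fell (Susd4, -0.45) in females, and on WSD 0 were higher and 2 lower in males, namely Ugt2b38 (-0.22) and Cyp7b1 (-0.32). Their median male minus female differences on WSD were -0.06 in both lists, against -0.018 over all genes. Without m-LF6 and m-WS1, 2 rose and 1 fell in males in the first list and 2 rose and 2 fell in the second, where 1 was then higher and 1 lower in males on WSD.

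Genes of the foetal or early liver, the period of Cyp3a16, included 3 of 10 that fell in males and 0 that rose, with a median of -0.21, and 0 that changed in females; over all genes 2.6% fell and 3.02% rose in males, with a median of 0.007. Again 3 of 10 fell in males without m-LF6 and m-WS1, with a median of -0.25. Afp, the foetal counterpart of albumin, changed in males by -1.48 (adjusted p = 0.0333), Gpc3, a cell-surface proteoglycan, by -0.54 and Cdkn1c, an imprinted brake on the cell cycle, by -0.42. Of 11 tested genes of the late or adult liver, 1 rose and 4 fell in males (medians -0.04 in males and 0.05 in females) and 0 rose and 1 fell in females, where 1.59% of all genes fell and the median was 0.014; these counts were 1 and 4, and 0 and 1, without m-LF6 and m-WS1. The 4 that fell in males include Cyp2c37 (-0.41), Cyp2c50 and Cyp2c54, which also fell as members of the list of PXR and CAR targets. These falls are thus counted in both lists.

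Markers of other cell types moved with the diet in males and their part in the Cyp3a results was not tested. Over all genes 3.02% rose and 2.6% fell in males, and 3.6% rose in females. Of 8 tested B and T lymphocyte markers, 4 rose in males (6 without m-LF6 and m-WS1) and 0 in females. The 6 were the B cell markers Igll1, Ebf1, Cd79a, Cd79b, Vpreb3 and Pax5. The T cell markers Cd3e (0.04) and Cd8a (-0.13) did not pass the threshold in males without those pups. The mean log2 level of the whole list was 5.28 to 6.27 in m-LF, 5.90 to 6.38 in m-WS, 5.51 to 6.64 in f-LF and 5.72 to 6.50 in f-WS. Of 10 tested neutrophil and myeloid precursor markers, 3 rose in males (2 without those pups) and 0 in females, with levels of 5.01 to 6.45, 5.72 to 6.35, 5.23 to 6.55 and 5.41 to 6.36 in the same order. Gut epithelium, which also makes Cyp3a13, was searched with 10 markers. Of these, Krt20 rose in both sexes (1.19 in males and 0.91 in females) and Fabp2 in females (0.52, and without those pups also in males, 0.28). Cdx1 (0.06 in males and 0.0 in females) and Slc5a1 (0.04 and -0.01) did not pass the threshold. Vil1, Cdx2, Alpi, Lct, Sis and Cdh17 stayed under the intensity filter. The level of the gut list, a mean over all 10 markers with Krt20 and Fabp2 among them, was 4.54 to 4.72 in m-LF and 4.74 to 4.84 in m-WS. In females it was 4.56 to 4.71 in f-LF and 4.72 to 4.87 in f-WS. In males 2 of 7 stellate and fibroblast markers and 1 of 7 endothelial markers fell. Of 4 cholangiocyte markers 1 rose in males, although the median of the 4 was -0.22. Without m-LF6 and m-WS1, Sox9 rose in males (0.49), whereas Krt19 (-0.80), Krt7 (-0.25) and Epcam (-0.21) were lower without passing the threshold. None of the tested hepatocyte (3), erythroid (5), Kupffer (7), pancreatic acinus (2) and adipose (3) markers changed with the diet in either sex.

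The genes on either side of the family were read for a change shared by the region. Of the nearest 3 measured genes on each side of Cyp3a13 and of the cluster, 10 passed the intensity filter, and 0 changed with the diet in either sex. Over all genes tested 3.02% rose and 2.6% fell in males, and 3.6% rose and 1.59% fell in females. With shares this low, 0 of 10 cannot tell whether the region changed. Their differences lay between -0.06 and 0.19 on the log2 scale. Zscan25, next to the cluster at its Cyp3a57 end, had 0.08 in males and Rnf6, at the other end, 0.06.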

How the data were processed

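Each of 27 pup livers gave RNA for 1 Affymetrix Mouse Gene ST array. The authors deposited log2 values per probe set, made by RMA (version not given in the sources used here). Of 35556 probe sets, 21218 were listed with 1 gene, 1881 with several and 12457 with none; symbols were updated by Entrez identifier. The members and lists were chosen with earlier results of these data known. The model (limma 3.58.1 in R 4.3.3) had a mean for each of 4 groups, with eBayes and an intensity trend; it was tested on simulated data. Named were the members, other Cyp3a probe sets, the 3 genes most like each member, up to 4 genes per list and comparison at p of at most 0.01, and neighbouring genes. Promoter windows were aligned with Biopython 1.88. Alternatives were other filters, moderation, normalization and blocks, leaving out numbers or pups, the mean of a gene's probe sets, and exact permutation. The number of arrays limits the precision.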

Additional observations from a re-analysis of the deposited data

Results flagged for a closer look

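The diet response differed between the sexes for 2 members by the interaction test. Cyp3a44 had a male minus female difference of -0.72 in its response (limma, past p 0.01), made up of -0.40 in males and 0.32 in females. Cyp3a16 had -0.56, made up of -0.34 and 0.22. Neither passed an adjusted p of 0.05 over all genes (0.182 and 0.355). The responses of Cyp3a44 were known when the family was picked. In the 20 groups of pups examined (5 members by 4 groups), 0 held a pup far from the others by Dixon's criterion, which chance alone would meet in about 1 of 20.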

How the results depend on the processing

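The difference between the sexes in the diet response kept its direction and p of at most 0.01 for Cyp3a44 (-0.90 to -0.59) and Cyp3a16 (-0.62 to -0.48) under all 47 alternatives run, as did the difference between the sexes on WSD (-0.70 to -0.40 and -0.53 to -0.43). The falls of Cyp3a44 and Cyp3a16 in males and the rises of Cyp3a13 in males and Cyp3a44 in females kept their direction under all 48, but the calls were lost under 1, 9, 18 and 9 of them. Some of the 47 and of the 48 could not move an estimate, so these totals overstate the check of direction. They include other filters, the mean of a gene's probe sets, exact permutation and leaving out pups outside the groups compared. The number of members that changed in males was 3. It became 1 without number 37, without number 40 and in the exact permutation test, and 0 without number 48. It became 2 without the intensity trend, with the number as a random block and with arrays of a number and sex averaged. The count was also 2 without number 49, without number 50 and without m-LF6 and m-WS1. Leaving out single pups it ran from 1 to 3. In females the count of 1 became 0 with the number as a random block, without numbers 39, 40 or 49 and in the exact permutation test, and ran from 0 to 1 without single pups. The cause was not tested. On WSD the count ran from 2 to 3 without single pups, the added member being Cyp3a13.

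Of single pups, leaving out m-LF1, m-LF5, m-WS2, m-WS3 or m-WS6 ended the call of Cyp3a16 in males (-0.32 to -0.28), m-LF2 to m-LF5, m-WS1 or m-WS3 to m-WS5 that of Cyp3a13 in males (0.18 to 0.24), and f-LF4, f-WS1, f-WS3 or f-WS4 that of Cyp3a44 in females (0.25 to 0.31). The replicate numbers of the titles did not pair the pups: deviations of same-numbered pups correlated above 0.1 in 10 of 36 pairs (-0.26 to 0.38). With the replicate block, the difference between the responses was -0.78 for Cyp3a44 and -0.58 for Cyp3a16, the diet difference of Cyp3a44 was -0.40 in males and 0.38 in females, no call was gained or lost, and the sign turned only for Cyp3a11 between the sexes on LFD (0.01).

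Signs turned only for members with values near 0 and no call. Without number 48 Cyp3a25 in males was -0.01 and Cyp3a13 in females -0.07, and without number 40 Cyp3a25 in females was 0.04. The difference between the responses of Cyp3a11 was 0.01 after median centring, 0.02 after repeated quantile normalization, 0.003 with the prefix as a block, 0.01 with arrays of a number and sex averaged, 0.04, 0.05 and 0.01 without numbers 48, 49 and 50, and 0.03 without m-LF6 and m-WS1. The alternatives for the differences between the sexes were added after the data were seen. On LFD, Cyp3a11 was 0.05 without number 37, Cyp3a16 -0.004 without number 49, and Cyp3a13 -0.01 after repeated quantile normalization, with the prefix or the number as a block and with averaged arrays, -0.04 without number 49 and -0.02 without m-LF6 and m-WS1. On WSD, Cyp3a11 was 0.0034 after median centring and 0.03 without number 48, and Cyp3a25 -0.01 with the number as a fixed block or averaged arrays, -0.0002 without number 40 and -0.02 without number 48. Leaving out single pups, the range was -0.02 to 0.08 for Cyp3a13 and -0.05 to 0.03 for Cyp3a25 in females, -0.04 to 0.03 for the difference of Cyp3a11, -0.05 to 0.02 for Cyp3a11 and -0.03 to 0.06 for Cyp3a13 on LFD, and -0.03 to 0.0041 for Cyp3a11 and -0.03 to 0.05 for Cyp3a25 on WSD.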
